A study of Homo sapiens with 4 samples.

Results

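Plasminogen activation and tissue factor genes were examined in the human ovarian cancer line SKOV3, grown on 2 substrates. The 9 genes, out of 19475 gene symbols measured, were chosen by name: PLAU, PLAT, PLAUR, SERPINE2, SERPINB2, F3, TFPI, TFPI2 and THBD. Groups of 2 libraries each were compared. The first group held unmodified SKOV3 cells on a tissue culture plate (TCP), labelled day 0. The second held SKOV3 tumor spheroids on a polymer X-coated plate, a polymer thin film to which cells attach poorly, labelled day 8. The sample labels name serum replacement as the supplement for all 4 libraries, whereas the methods name fetal bovine serum for the upkeep of SKOV3 and serum replacement for spheroids, which were also dissociated with accutase during culture. Substrate, day and possibly medium changed together, and their parts in any difference cannot be told apart. Both groups come from 1 cell line, and nothing in the labels says that the libraries of a group came from separate cultures, so p-values measure only the spread between these libraries.

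Plasminogen is cleaved to plasmin, a protease that dissolves fibrin and degrades matrix, by the urokinase and tissue-type activators encoded by PLAU and PLAT. Urokinase acts at the cell surface when bound to its receptor, PLAUR, and both activators are blocked by inhibitors of the serpin family. Tissue factor, encoded by F3, binds factor VII to start coagulation and is often expressed by ovarian cancers. Its inhibitor TFPI blocks the tissue factor complex, while thrombomodulin, encoded by THBD, turns thrombin toward the anticoagulant protein C pathway.

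Expression was given as FPKM, a measure of sequenced tags relative to transcript length and library size, for each RefSeq transcript (hg19). From the steps between low values, the libraries held between 38403000 and 44917000 tags. For each gene the transcript with the highest mean was used. Changes were tested with limma on log2(FPKM + 1) over the 11964 genes that reached an FPKM of 1 in 2 or more libraries, and fold changes on this scale understate those of low genes. A gene is said to have risen or fallen at a Benjamini-Hochberg adjusted p under 0.05, and to be called higher or lower when its log2 fold change also reached 1 in size. Most genes pass the first rule, with 37.4% higher and 43.6% lower, whereas 10.7% were called higher and 9.45% were called lower. With 2 libraries in each group, 0.333 is the smallest two-sided p that exact permutation of the libraries allows.

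The line was checked by its markers. ERBB2, KRT8, KRT18 and PAX8 had FPKM of 48.8 or more in every library, while EPCAM and KRT19 were low, with 0.104 to 1.39. Their levels differed between the groups. Means on TCP and polymer X were 202 and 887 for ERBB2, 49.7 and 105 for PAX8, 0.136 and 1.36 for EPCAM and 0.39 and 0.69 for KRT19. Lower on polymer X were KRT8, at 265 and 144, and KRT18, at 122 and 89.5. Of 8 endothelial and 8 leukocyte markers, 0 reached an FPKM of 1 in any library. The summed FPKM of the endothelial markers was 0.687 to 0.856 on TCP and 1.27 to 1.49 on polymer X, and that of the leukocyte markers was 0.137 to 0.224 and 1.13 to 1.15. Among 6 fibroblast markers, whose summed FPKM was 8.58 to 8.87 on TCP and 14.8 to 16.7 on polymer X, COL1A1 (mean 8.34 on TCP and 3.79 on polymer X), COL3A1 (0.021 and 4.91) and DCN (0.013 and 6.73) passed that level. In bulk RNA, a change in the number of cells with a transcript and a change in its level per cell cannot be told apart.

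To show the DNA next to the starts of genes that were higher on polymer X, the 250 bases before the start are printed for the 4 rising genes with a single entry in the RefSeq promoter table of build GRCh38.p14. These coordinates are not those of the hg19 table. Of the 9 genes, 7 had an entry and 2 of these had more than 1. All 4 genes lie on the minus strand, and the sequences read 5′ to 3′ along the gene, ending at the base before the start. They cover chr19:43670170-43670419 for PLAUR, chr2:187554436-187554685 for TFPI, chr1:94541760-94542009 for F3 and chr7:93890754-93891003 for TFPI2. Capitals mark matches on either strand to any of 7 motifs, those of AP-1, SP1, STAT and TEAD factors, both forms of the motif of hypoxia-inducible factors, and the TATA box, each spelled out after the sequences.
PLAUR: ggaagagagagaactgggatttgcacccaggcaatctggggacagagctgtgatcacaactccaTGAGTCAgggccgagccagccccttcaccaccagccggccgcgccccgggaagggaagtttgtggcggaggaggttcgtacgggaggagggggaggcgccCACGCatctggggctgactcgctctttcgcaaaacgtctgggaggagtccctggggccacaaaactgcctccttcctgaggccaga
TFPI: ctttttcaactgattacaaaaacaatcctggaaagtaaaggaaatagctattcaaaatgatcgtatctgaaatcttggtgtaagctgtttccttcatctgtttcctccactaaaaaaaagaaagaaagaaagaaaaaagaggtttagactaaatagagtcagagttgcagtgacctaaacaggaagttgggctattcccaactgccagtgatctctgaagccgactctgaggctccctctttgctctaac
F3: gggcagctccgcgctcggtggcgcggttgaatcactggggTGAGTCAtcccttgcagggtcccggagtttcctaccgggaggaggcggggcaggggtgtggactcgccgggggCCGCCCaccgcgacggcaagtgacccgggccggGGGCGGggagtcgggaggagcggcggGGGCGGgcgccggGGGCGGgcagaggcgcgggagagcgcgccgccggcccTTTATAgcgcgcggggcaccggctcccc
TFPI2: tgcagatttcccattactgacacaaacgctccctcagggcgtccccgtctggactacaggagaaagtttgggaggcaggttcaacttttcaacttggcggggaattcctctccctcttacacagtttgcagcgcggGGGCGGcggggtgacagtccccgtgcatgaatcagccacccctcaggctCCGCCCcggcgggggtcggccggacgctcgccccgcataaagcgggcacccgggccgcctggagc
In these windows no match overlapped another. The AP-1 motif, TGACTCA, lay in the windows of PLAUR and F3, beginning 186 and 210 bases before the start, and 4.20% of the 35116 promoters in the table hold it. F3 also had 4 matches to the SP1 motif, GGGCGG, the nearest 65 bases before the start, and a TATA box at 28 bases on the opposite strand. TFPI2 had 2 SP1 matches, and 42.6% of promoters hold that motif. PLAUR had 1 match to the hypoxia motif in its form GCGTG, found in 32.2%. The TATA box was searched as TATAAA and was found in 10.7%. The TFPI window held no match to any of the 7 motifs. For STAT the letters were TTCNNNGAA, present in 6.57% of promoters. The TEAD motif was GGAATG, present in 11.9%. The other hypoxia form was ACGTG, present in 18.5%. None of these last 3 had a match in the 4 windows. In windows not printed, PLAU, which fell, also had SP1 and GCGTG matches, and SERPINE2, which rose, had SP1 and both hypoxia forms. All of these are matches of letters and do not show binding.

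Of the 9 genes, 8 were tested. PLAUR, TFPI, TFPI2, SERPINE2, F3 and THBD rose on polymer X (6 genes), and PLAT and PLAU fell (2 genes), where 37.4% of all tested genes rose and 43.6% fell. THBD entered the test through the polymer X libraries alone and lost the threshold without either TCP library, and without THBD 5 of 7 rose. Under quantile normalization the direction of PLAU and of THBD turned. PLAUR alone was called higher, which is 12.5% of the tested genes against the 10.7% of all genes given above, and 0 were called lower. Their median log2 fold change was 0.35, against -0.06 for all tested genes, and under quantile normalization these were 0.71 and -0.05. The values of the groups did not overlap for any of the 8, which also holds for 90.4% of all tested genes. SERPINB2, which encodes a serpin inhibitor of urokinase, had 0 tags in all 4 libraries. A library with 3 tags of its transcript would have an FPKM of 0.031 to 0.036, a limit that covers counting error only.

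**Figure D1:**
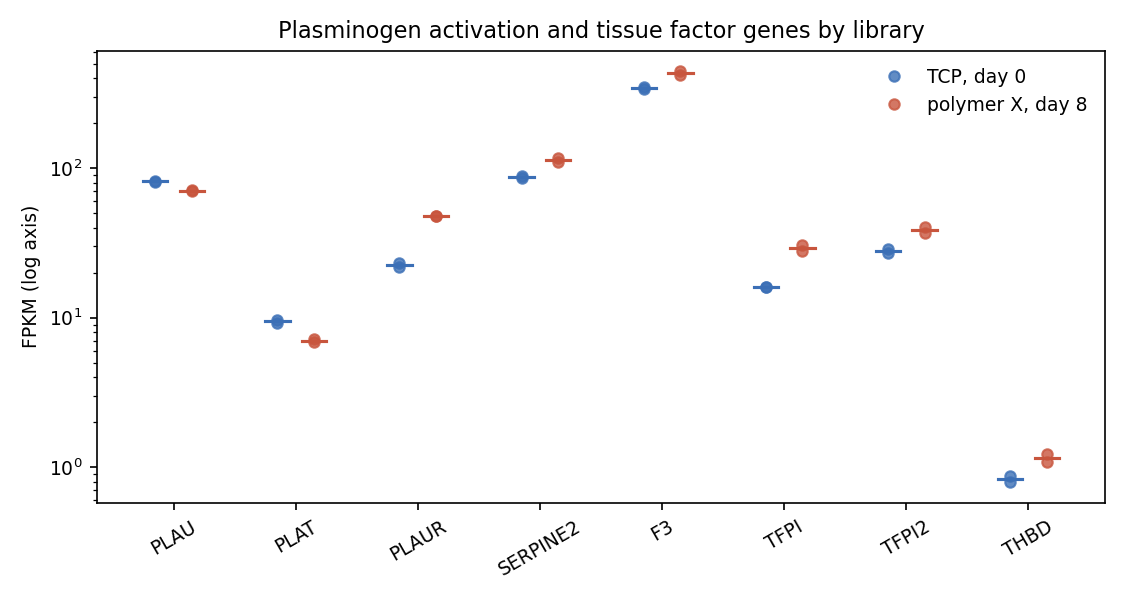
FPKM on a log axis of 8 genes in each library, with points for the 2 TCP (day 0) and 2 polymer X (day 8) libraries and short lines for the group means. PLAUR lies at 21.9 and 23.1 on TCP and at 47.7 and 48.3 on polymer X, and F3 is highest in both groups. SERPINB2, at 0 in every library, cannot be drawn on this axis.

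Plasminogen activators were slightly lower on polymer X. PLAU, which encodes urokinase (NM_001319191, chromosome 10, 75670859 to 75677258), had FPKM of 82.4 and 81.5 in TCP replicates 1 and 2 and of 70.3 and 71.3 in polymer X replicates 1 and 2. Both polymer X libraries lay below both TCP libraries. The means were 82.0 ± 0.636 and 70.8 ± 0.709 (SD, n = 2), and the log2 fold change was -0.21 (standard error 0.05, adjusted p = 0.0048 from limma), but under quantile normalization it was 0.12 (adjusted p = 0.067 from limma). The minus-strand gene C10orf55 spans PLAU and was counted without regard to strand, so tags of the pair cannot be told apart. Its own FPKM was 16.0 and 15.1 on TCP and 11.2 and 11.5 on polymer X.

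PLAT encodes the tissue-type activator (NM_000930, chromosome 8, 42032236 to 42065242). Its FPKM was 9.64 and 9.28 on TCP and 6.88 and 7.16 on polymer X, with no overlap between the groups. The log2 fold change was -0.38 (standard error 0.06, adjusted p = 4.1e-04 from limma), the largest fall among the 8 genes. PLAT was expressed at a lower level than PLAU in every library. The genes outside the 9 whose centred profile over the 4 libraries lay nearest to that of PLAT were KATNAL1, GPD2 and SLC7A2, at Euclidean distances of 0.0026, 0.021 and 0.022 on the log2 scale. With 2 groups of 2 libraries, such likeness says little more than an equal fold change.

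The urokinase receptor changed most. PLAUR (NM_002659, chromosome 19, 44152723 to 44174498) had FPKM of 21.9 and 23.1 on TCP and of 47.7 and 48.3 on polymer X. Both polymer X libraries were far above both TCP libraries, and the replicates of each group lay close together. Its mean rose from 22.5 ± 0.843 to 48.0 ± 0.438 (SD, n = 2), a 2.13-fold ratio of FPKM and a log2 fold change of 1.06 (95% interval 0.93 to 1.19, standard error 0.06, adjusted p = 1.6e-07 from limma). In rank this was 1191 of 11964 genes from the largest rise. The nearest profiles were those of ACSF2, TGFB1 and CCDC57, with log2 fold changes of 1.07, 1.05 and 1.08 and distances of 0.013, 0.025 and 0.028. The FPKM of PLAU divided by that of PLAUR, a ratio chosen after the values were seen, was 3.76 and 3.53 on TCP and 1.47 and 1.48 on polymer X.

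Of the 2 serpins among the genes, SERPINE2 alone was detected. SERPINE2, or protease nexin-1 (NM_006216, chromosome 2, 224839765 to 224904036), inhibits thrombin and urokinase. Its FPKM was 89.2 and 86.2 on TCP and 117.6 and 110.3 on polymer X, so that both polymer X values were higher. The means were 87.7 ± 2.12 and 114 ± 5.21 (SD, n = 2), with a log2 fold change of 0.37 (SE 0.06, limma adjusted p = 2.5e-04) that became 0.70 under quantile normalization. Relative to PLAU, the FPKM of SERPINE2 was 1.08 and 1.06 on TCP and 1.67 and 1.55 on polymer X.

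Tissue factor was the most abundant of the 9 genes in every library. F3 (NM_001993, chromosome 1, 94994732 to 95007413) had FPKM of 340.25 and 347.8 on TCP and of 422.3 and 445.9 on polymer X. Both polymer X libraries were higher, by a small margin next to the level. The means were 344 ± 5.36 and 434 ± 16.6 (SD, n = 2), a 1.26-fold ratio and a log2 fold change of 0.33 (SE 0.06, limma adjusted p = 9.0e-04). Quantile normalization gave 0.73, and the scaling to a common median gave 0.38.

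TFPI, the inhibitor of the tissue factor complex (NM_001032281, chromosome 2, 188343306 to 188419232), had FPKM of 16.1 in both TCP libraries and of 30.7 and 27.8 on polymer X. The polymer X libraries were both higher and differed more from each other than the TCP libraries did. The means were 16.1 ± 0.0028 and 29.3 ± 2.05 (SD, n = 2), a 1.82-fold ratio and a log2 fold change of 0.82 (95% interval 0.68 to 0.97, standard error 0.06, adjusted p = 2.0e-06 from limma). It missed the minimum of 1 except under quantile normalization, where it was 1.04. The FPKM of F3 divided by that of TFPI was 21.1 and 21.6 on TCP and 13.7 and 16.0 on polymer X, a ratio also chosen after the values were seen.

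TFPI2 encodes a related Kunitz-type inhibitor that is secreted into matrix and blocks plasmin (NM_006528, chromosome 7, 93514709 to 93520303). FPKM was 28.9 and 27.1 on TCP and 40.6 and 36.8 on polymer X, and the groups did not overlap. The log2 fold change was 0.45 (standard error 0.07, adjusted p = 1.5e-04 from limma) and 0.72 under quantile normalization. Its mean of 28.0 ± 1.29 FPKM (SD, n = 2) was above that of PLAUR on TCP, and its mean of 38.7 ± 2.70 (SD, n = 2) was below that of PLAUR on polymer X.

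THBD, with FPKM of 0.795 and 0.868 on TCP and of 1.22 and 1.08 on polymer X (NM_000361, chromosome 20, 23026270 to 23030301), was near the limit of the filter. It passed through the polymer X libraries alone, so its direction was partly set by the filter. These values stand for 123 and 157 tags on TCP and 196 and 177 on polymer X. The log2 fold change was 0.23 (standard error 0.08, adjusted p = 0.031 from limma), and it was -0.30 (adjusted p = 0.014 from limma) under quantile normalization. Without TCP replicate 1 it was 0.20 (adjusted p = 0.176 from limma) and without TCP replicate 2 it was 0.26 (adjusted p = 0.085 from limma), and without either polymer X library THBD was not tested.

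**Figure D2:**
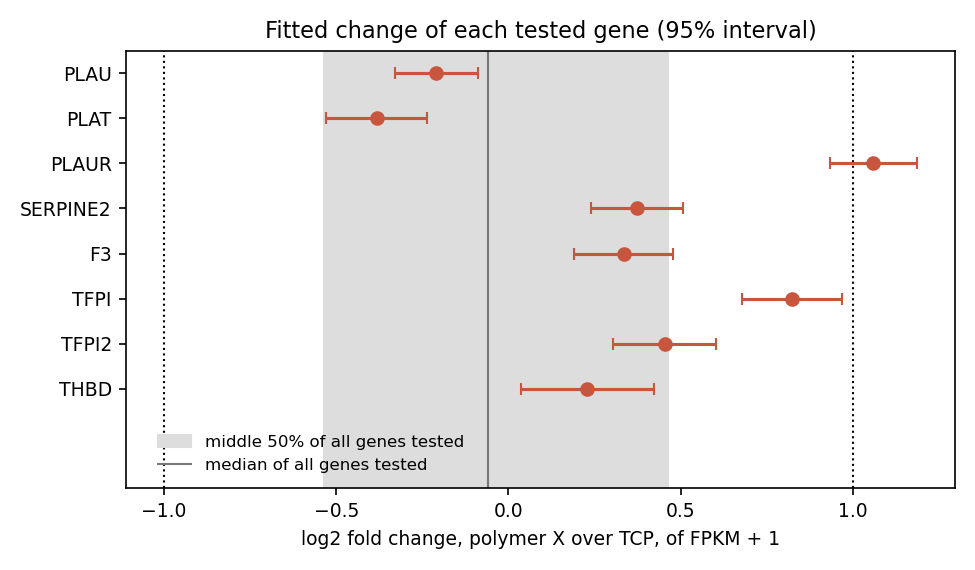
Fitted log2 fold change of FPKM + 1, polymer X over TCP, for the 8 tested genes, with points for the estimates and bars for 95% intervals from limma, a grey band for the middle 50% of all tested genes and dotted lines at 1 and -1. PLAUR (1.06) and TFPI (0.82) lie to the right of the band, which reaches 0.46, and the other 6 lie inside it. PLAU and THBD change sign under quantile normalization.

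In order of FPKM, the genes ran F3, SERPINE2, PLAU, TFPI2, PLAUR, TFPI, PLAT, THBD and SERPINB2 on TCP. On polymer X, PLAUR and TFPI2 changed places. The ranges of the 2 libraries did not overlap between any neighbours in either order.

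The 9 genes were listed with 27 transcripts. Transcripts of a gene share tags and are not independent. Fitted over all transcripts, each tested gene kept 1 direction in all its transcripts. The 4 PLAUR transcripts had log2 fold changes of 0.97 to 1.06. The lowest was that of NM_001005376, which has another last exon and had FPKM of 18.6 and 19.0 on TCP and of 36.5 and 39.2 on polymer X. For TFPI, the choice of transcript mattered more. Its 2 short transcripts, of 1152 and 1182 bases, had log2 fold changes of 0.82, and its 4 long ones, of 3919 to 4070 bases, had 0.92 to 0.94. The long NM_006287 had FPKM of 11.3 and 11.2 on TCP and of 23.9 and 21.0 on polymer X. These intervals overlap, and the difference between short and long transcripts was not tested. Transcripts of F3 had log2 fold changes of 0.32 and 0.33, those of PLAU -0.22 to -0.21, those of PLAT -0.38 to -0.34, those of SERPINE2 0.37 to 0.38 and those of TFPI2 0.45.

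**Figure D3:**
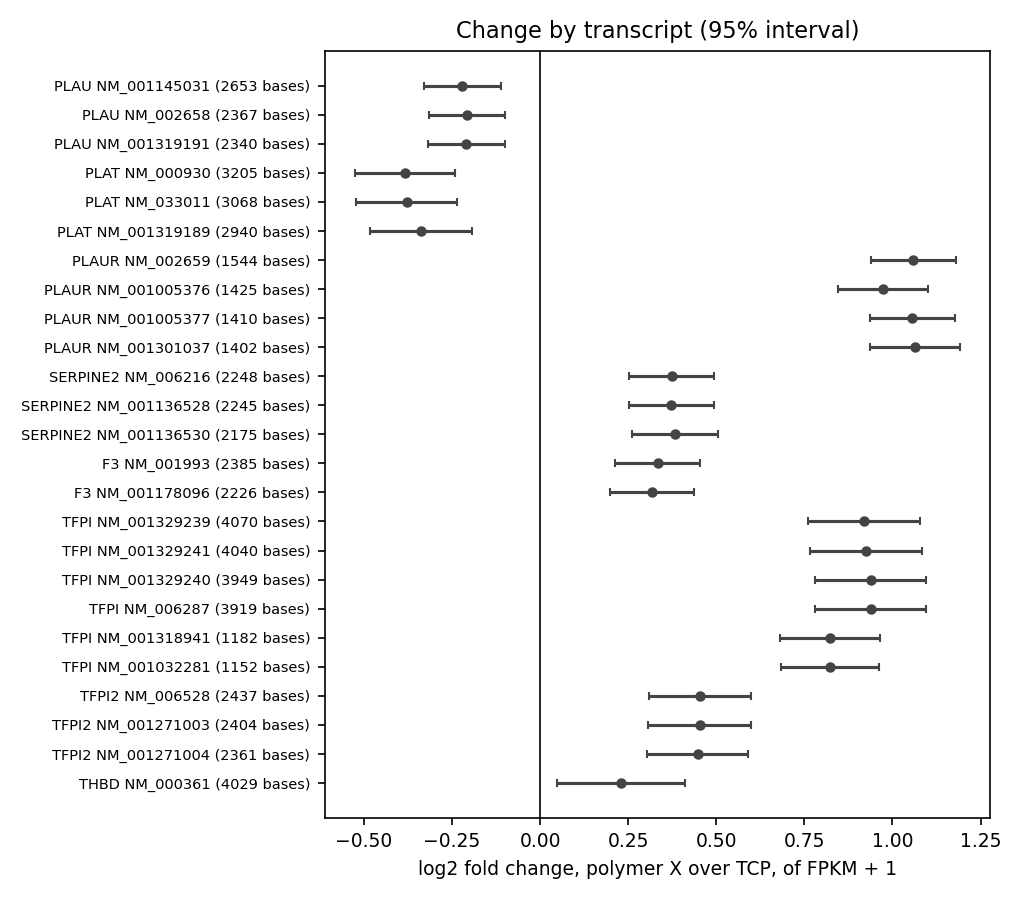
Log2 fold change of FPKM + 1, polymer X over TCP, for each transcript of the 8 tested genes, with RefSeq identifier and length, points for the estimates and bars for 95% intervals from limma. The transcripts of a gene lie together, and the short and long transcripts of TFPI lie at 0.82 and at 0.92 to 0.94.

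For transcript pairs that differ by a single internal exon, the tags of that exon follow from the difference between both. The F3 pair differs by 159 bases, by the listed lengths, an exon present in the membrane-anchored form of tissue factor and skipped in its soluble splice form. The density of tags on this exon was 123% and 127% of that on the rest of the transcript on TCP and 139% and 147% on polymer X, from 2518 to 4106 tags a library. For the 134 bases of PLAUR the density was 100% and 97.6% on TCP and 105% and 97.0% on polymer X. The 137 bases of PLAT rested on 60 to 90 tags a library and had 182% and 162% on TCP and 178% and 154% on polymer X. Density along a transcript also varies with position and sequence, so these percentages are not shares of splice forms. These 3 exons had 97.0% or more in every library. The 30 bases that separate the short TFPI transcripts rested on 2 to 11 tags, with 10.6% and 27.8% on TCP and 29.9% and 11.8% on polymer X, too few to compare.

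Other genes of both systems were described from 2 lists. Of 29 plasminogen partners, 11 were tested, and 5 rose, 2 fell and 4 did not pass the test, beside 37.4% and 43.6% of all genes. LRP1, MRC2 and MST1 were called higher (27.3%, against 10.7% of all genes, or 20% without MST1, which entered through the polymer X libraries alone), 0 were called lower by limma, and the median log2 fold change was 0.09. The 2 genes that fell were ANXA2 and PLGRKT. Of the other plasminogen receptor genes tested, S100A10 rose, and ENO1 had a log2 fold change of -0.06 (adjusted p = 0.497 from limma). PLG, the gene of plasminogen itself, had an FPKM of 0 in all 4 libraries. Of the 18 partners that were not tested, 4 had at most 3 tags in every library.

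LRP1, an uptake receptor for complexes of activators and serpins, had FPKM of 6.55 and 6.85 on TCP and of 33.8 and 39.5 on polymer X, and the log2 fold change was 2.29 (standard error 0.08, adjusted p = 1.1e-08 from limma). MRC2, a collagen receptor that associates with PLAUR, had 33.0 and 34.1 on TCP and 94.6 and 97.7 on polymer X, with a log2 fold change of 1.49. Both receptors were higher in each polymer X library than in each TCP library. The VLDL receptor gene VLDLR, with a log2 fold change of 0.87, rose without being called, and with a pseudocount of 0.1 it was called higher, at 1.03. MST1, which encodes a plasminogen-related growth factor, rose from 0.409 ± 0.116 to 2.83 ± 0.187 FPKM (SD, n = 2) and is uncertain, since the gene has near-identical pseudogene copies. The plasminogen-binding pair ANXA2 and S100A10 differed in direction. ANXA2 had a mean of 690.3 on TCP and 499.9 on polymer X with a log2 fold change of -0.46, and S100A10 had 174 and 206 with 0.24. Processed copies of ANXA2 elsewhere in the genome share its sequence, so its level is uncertain. Under quantile normalization the change of ANXA2 was -0.07 and did not pass the test (adjusted p = 0.348 from limma), and that of S100A10 was 0.57.

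Of 27 coagulation partners, 9 were tested, and 4 rose, 3 fell and 2 did not pass the test, again beside 37.4% and 43.6% of all genes. F2RL2, 1 of those that rose, entered through the polymer X libraries alone, so its direction was partly set by the filter. PROS1 was called higher and F2RL1 lower, each 11.1% of the tested list against 10.7% and 9.45% of all genes, and the median log2 fold change was 0.11. PROS1 encodes protein S, a cofactor of both activated protein C and TFPI. Its FPKM was 8.15 and 7.30 on TCP and 24.6 and 22.5 on polymer X, and the log2 fold change was 1.49 (standard error 0.07, adjusted p = 9.8e-08 from limma). The endothelial protein C receptor gene, PROCR, had 6.66 and 6.90 on TCP and 3.58 and 4.66 on polymer X, with a log2 fold change of -0.61 (adjusted p = 3.1e-04 from limma).

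Of the protease-activated receptor genes, 3 were tested. F2RL1, whose product is cleaved by the tissue factor complex and by trypsin-like proteases, had FPKM of 12.2 and 11.5 on TCP and of 4.67 and 4.54 on polymer X, and the log2 fold change was -1.20 (standard error 0.07, adjusted p = 2.2e-07 from limma). F2R, the thrombin receptor, had 10.5 and 11.2 on TCP and 14.4 and 14.98 on polymer X, with a log2 fold change of 0.40 (adjusted p = 2.4e-04 from limma). F2RL2 had 0.779 and 0.877 on TCP and 1.40 and 1.10 on polymer X, with a log2 fold change of 0.30 (adjusted p = 0.015 from limma) that was -0.20 (adjusted p = 0.101 from limma) under quantile normalization. F2RL3 was not tested. By FPKM, F2RL1 was above F2R in both TCP libraries, by little in replicate 2 (11.5 against 11.2), and below it in both polymer X libraries. By tags, which are not scaled to transcript length, F2R was the higher in every library.

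**Figure D4:**
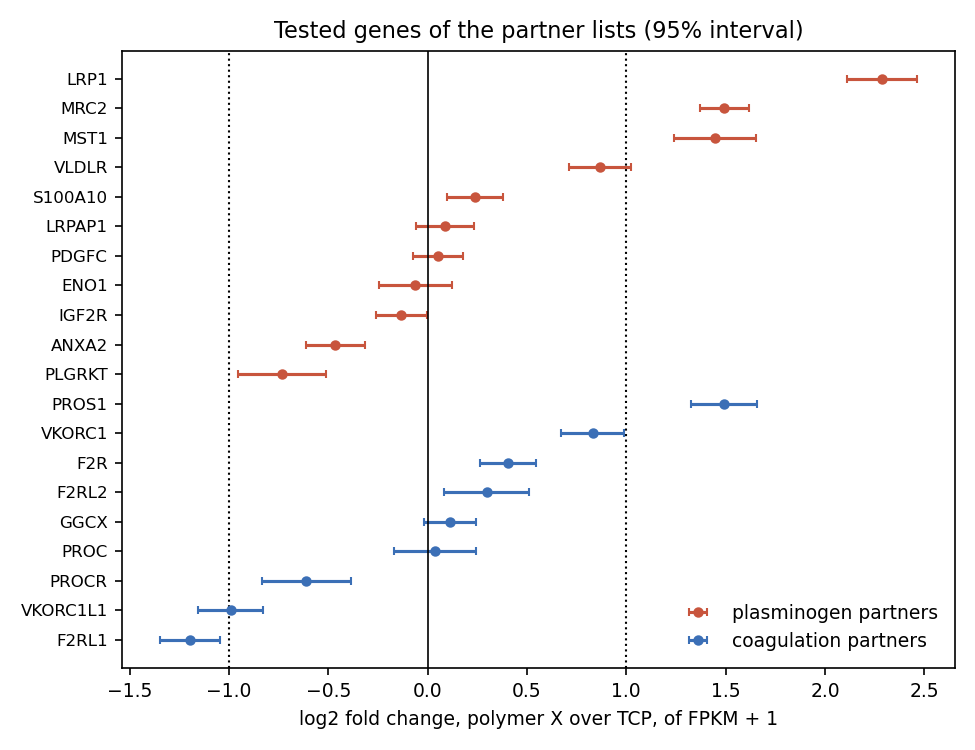
Log2 fold change of FPKM + 1, polymer X over TCP, for the 11 tested plasminogen partners and 9 tested coagulation partners, with points for the estimates, bars for 95% intervals from limma and dotted lines at 1 and -1. F2RL1 at -1.20 lies farthest to the left of the genes shown, and LRP1 at 2.29 lies farthest to the right. F2RL2, IGF2R and PROC change sign under quantile normalization.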

How the data were processed

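RNA-seq was compared between 2 TCP and 2 polymer X libraries. The authors deposited FPKM values per RefSeq transcript of hg19, 1 column a library; per the file headers they came from HOMER (exons, both strands), whose version is not given in the sources used here. The submitters' processing notes also name STAR 2.4.0 and DESeq. Library preparation was directional, but strand was not used in counting. Tags per library were recovered from the steps of values under 3 FPKM, and 100% of these came within 0.1 tags of an integer.

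Per symbol, the transcript with the highest mean was kept (10500 of 19475 symbols had more than 1). Genes reaching an FPKM of 1 in 2 or more libraries were fitted by limma 3.58.1 (R 4.3.3) on log2(FPKM + 1), using a variance trend, no replicate block and Benjamini-Hochberg adjustment. The procedure was tested on simulated data, where it called the changed genes of a mean FPKM of 5 or more but missed part of those below. The requirement was limited to that level, and the simulated means were redefined, after a first version that covered all levels fell short, so a low gene that is not called, such as THBD, may still have changed. The genes, lists and tests were chosen with earlier results of these data known. Named are all 9 genes, a fixed set of partners (1 partner gene is not reported here), the called partners with the largest changes (up to 6 a direction and list), fibroblast markers at an FPKM of 1 or more and the 3 nearest profiles of the genes with the largest rise and fall; other partners, single exons, ratios and motifs were chosen after values were seen. Alternatives were a pseudocount of 0.1, no filter, a minimum mean FPKM of 5, quantile normalization, a common median, the replicate block, the sum of transcripts, no trend, other fold change minima and leaving out each library. Exon structures came from GENCODE 29 by RefSeq identifier. Plots were drawn with matplotlib 3.10.9.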

Additional observations from a re-analysis of the deposited data

How the results depend on the processing

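The log2 fold changes of PLAUR, TFPI, TFPI2, SERPINE2, F3 and PLAT kept their direction and an adjusted p under 0.05 from limma under every alternative run. Quantile normalization turned PLAU to 0.12 and THBD to -0.30. The cause was not tested. THBD lost the threshold with the transcripts summed, at 0.23 (adjusted p = 0.068 from limma, and 0.012 to 0.068 over the alternatives that keep all libraries). As THBD has 1 transcript, its log2 fold change was the same as before, while its standard error went from 0.08 to 0.10. The median over the tested genes was 0.35. Medians of each polymer X library against the TCP mean had an SD of 0.0051, which leaves out the spread of the TCP libraries. The median was 0.40 with a pseudocount of 0.1, 0.33 with no filter, 0.71 under quantile normalization and 0.40 with a common median. For a minimum mean FPKM of 5, where THBD was not tested, it was 0.37.

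Counts of called genes depend on the fold change minimum. Without one, 6 genes were higher and 2 lower, with 5 and 2 plasminogen and 4 and 3 coagulation partners. Of all genes, 37.4% were then higher and 43.6% lower. At a minimum of 2, 0 genes, 1 plasminogen partner (LRP1) and 0 coagulation partners were higher and 0 lower. Under 5% of all genes passed each way (percentiles 5 and 95: -1.31 and 1.52). Under quantile normalization 2 genes (PLAUR and TFPI) and 2 coagulation partners (PROS1 and VKORC1) were called higher. Of all 11964 genes tested, 1181 were called higher and 1020 lower at that setting, against 1285 and 1131 without it. Plasminogen partners called higher were 4 with a pseudocount of 0.1 (VLDLR added) and with summed transcripts (SERPINI1 added). They were 2 for a minimum mean FPKM of 5, where MST1 was not tested. Over all genes, 1837 of 11964, 1644 of 12490 and 702 of 8166 were called higher at these settings in turn, and 1413, 1259 and 960 lower. The higher SERPINI1 transcript had FPKM of 0.063 and 0.241 on TCP and of 0.99 and 0.856 on polymer X. SERPINI1 entered through the polymer X libraries alone, so its direction was partly set by the filter. VKORC1L1, at -0.99, joined F2RL1 as lower with a pseudocount of 0.1, under quantile normalization and with summed transcripts, which gave 2.

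When 1 library was left out, the lone library of a group is assumed to vary like the other group. Ranges were 1.02 to 1.10 for PLAUR, 0.75 to 0.89 for TFPI, 0.38 to 0.52 for TFPI2, 0.33 to 0.42 for SERPINE2, 0.30 to 0.37 for F3, -0.41 to -0.36 for PLAT, -0.22 to -0.20 for PLAU, 0.20 to 0.26 for THBD and 0.35 to 0.42 for the median. Called genes stayed at 1 higher and 0 lower, plasminogen partners at 2 to 3 higher (2 without either polymer X library, where MST1 was not tested) and 0 lower, and coagulation partners at 1 higher and 1 to 2 lower. With the replicate number as a block no call changed. The median of 0.35 could not change, since each replicate number occurs once in each group. Deviations from the group means correlated at 0.093 between libraries of the same number, so no pairing was assumed. Depth limits SERPINB2 and PLG, at 0 tags.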
